A study of Mus musculus with 2 samples.

Results

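Voltage-gated sodium and calcium channel genes, hyperpolarization-activated (Hcn) channel genes and potassium channel genes were described in single cells of the embryonic mouse medial ganglionic eminence (MGE), a source of cortical interneurons and basal forebrain neurons. The members were chosen by symbol alone: every row whose gene symbol began with Kcn and a letter, Scn and a digit, Cacna, Cacnb or Cacng, or Hcn and a digit. The rule found 97 rows of the 18088 in the deposited table, of which 93 were protein-coding genes and 4 were noncoding or antisense genes. In the GENCODE M21 annotation of the mouse build GRCm38, 138 protein-coding genes fit the same rule.

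Tissue came from CD-1 embryos at E11.5. It was profiled by 10x Chromium single-cell RNA sequencing with MULTI-seq, which tags cell suspensions with barcodes so that they can be run together. The pool combined embryos of 2 enhancer reporter lines, hs192 and hs799. Cells gated for GFP carried 4 of the 6 barcodes and ungated cells the other 2, so class shares can follow the gate. The cells formed 1 RNA library with no map from cells to barcodes used here. With no replicate libraries, animal-to-animal spread is unknown and no test was made.

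Voltage-gated channels are membrane proteins whose pore opens when the membrane potential changes. Sodium channels carry the upstroke of the action potential, calcium channels couple depolarization to transmitter release and gene regulation, and potassium channels bring the membrane back to rest. Most pore proteins work with auxiliary subunits (β, α2δ or KChIP proteins) that set their trafficking and gating, and tandem-pore potassium channels leak at rest without a voltage sensor. Progenitors of the embryonic ventricular zone are held near rest mainly by potassium conductances, and excitability is acquired as neurons mature.

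The 3995 cells used fell into 15 clusters, which were named from fixed marker lists. The neuron-like class held 1721 cells (43.1% of all, exact 95% interval 41.5% to 44.6%), the ventricular zone (VZ) progenitor-like class 1108 cells (27.7%, 26.4% to 29.2%) and the subventricular zone (SVZ) progenitor-like class 612 cells (15.3%, 14.2% to 16.5%). Among the neuron-like cells, 760 were cholinergic-like, 560 GABAergic MGE-like, 244 like neurons of the lateral ganglionic eminence (LGE) and 40 glutamatergic-like, while 117 took no type. The sizes of these types depended on the clustering. With cells classed on a random part of the values, 259 were cholinergic-like and 816 GABAergic-like. LGE-like cells numbered 77 at a clustering resolution of 2 and 123 without cells that skip the value 1. No cluster was glutamatergic-like at a resolution of 0.5, with 4000 variable genes or with channel genes kept in the clustering. The 10 leading genes of glutamatergic-like cluster 5 held Slc17a6 and Neurod1 of the glutamatergic list. They also held Otp, the first, and Sim1 of the hypothalamic or preoptic list. That list (7 of 9 markers measured) had a summed level of 9.93 in this cluster and at most 5.18 in another class. The region these cells came from was not determined. Cholinergic-like cells were named without Chat or Slc18a3, the genes of acetylcholine synthesis and loading, because the table held no row for either. Clusters 8 and 15, led by Prox1os and St18 and by Hmx2 and Hmx3, stayed unnamed with 554 cells. Nkx2-1, the defining transcription factor of the MGE, had a value in 67.9% of neuron-like and 79.9% of VZ-like cells, but in 20.5% of LGE-like and 15% of glutamatergic-like cells. The 97 channel genes took no part in the clustering, although genes that vary with them did.

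Channel transcripts were sparse. Together the 97 members held 0.112% of all summed values, and Kcnq1ot1, a long noncoding RNA antisense to Kcnq1, held 26.8% of that share. A member had a value in 10 to 3364 cells, with 25 members present in at least 10% of cells and 26 in under 1%. A level below is a gene's summed value per 10000 summed values of a class, and the SD beside it is the spread among single cells, not among animals. Of the 97 members, 79 reached 30 summed values over all cells. Among the other 18 were Cacng1, Kcna2, Kcnab3os, Kcnc4, Kcnd1, Kcnd3os, Kcng1, Kcng2, Kcnh1, Kcnh5, Kcnip4, Kcnj11, Kcnj12, Kcnk12, Kcnk7, Kcnq5 and Kcnv1.

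**Figure D1:**
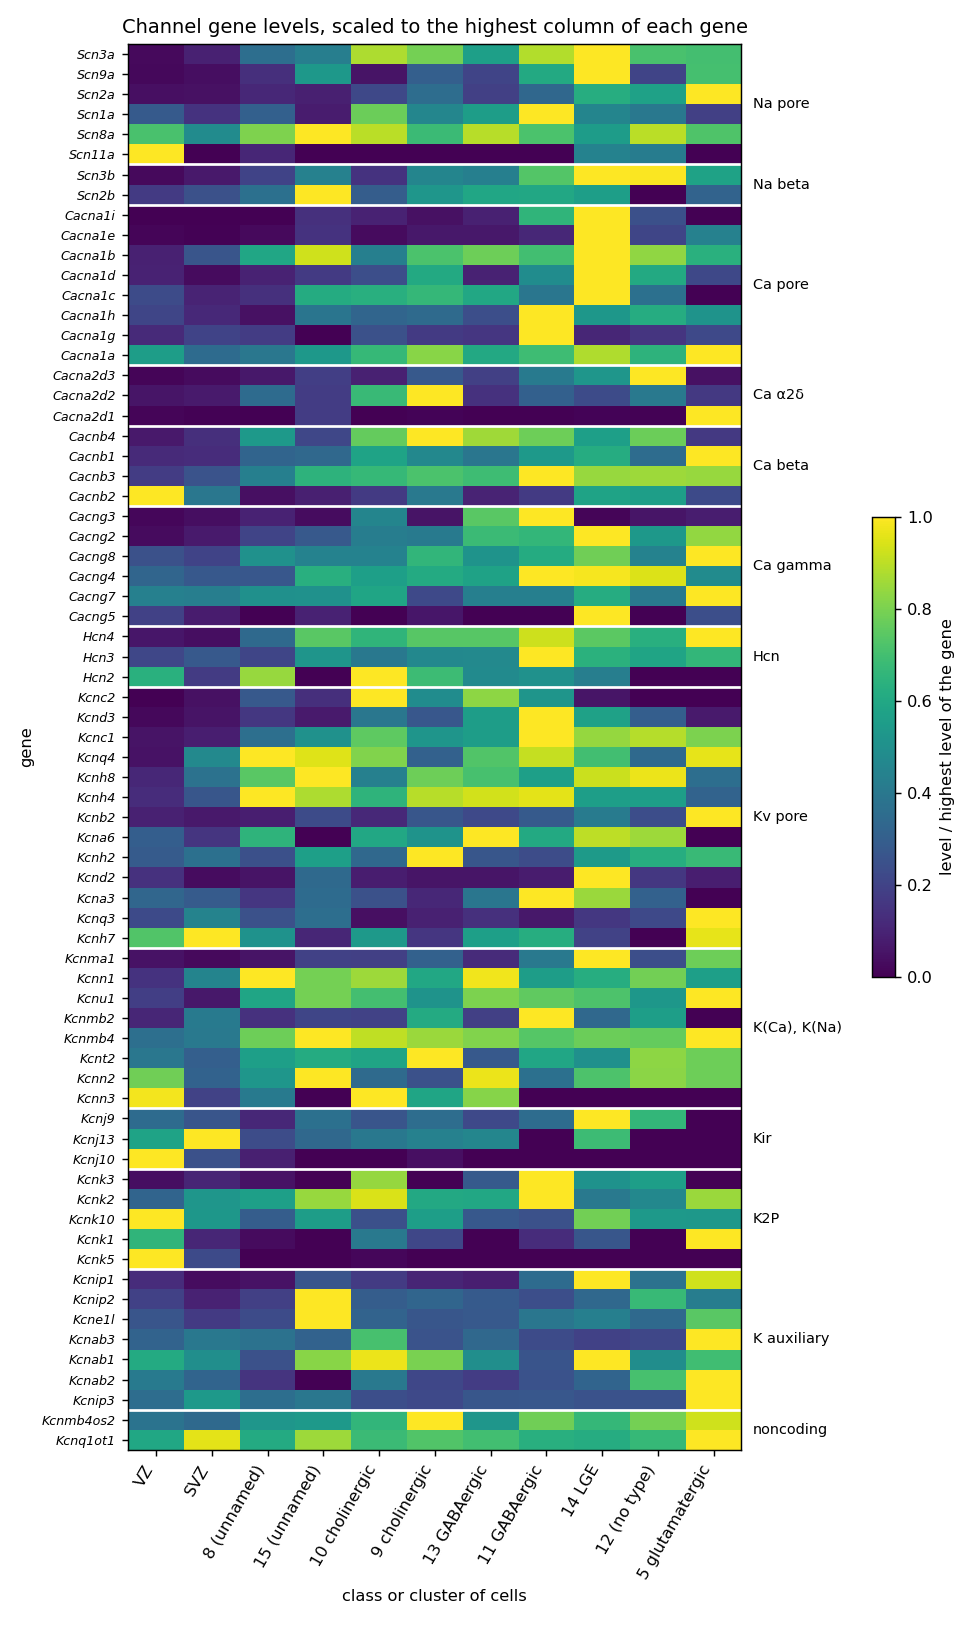
Level of 70 channel genes (rows, by role) in VZ-like and SVZ-like progenitors, unnamed clusters 8 and 15 and 7 neuron-like clusters (columns), each gene scaled to its highest column, so that 1 marks that column. Most rows were brightest among the neuron-like columns, while Kcnk5, Kcnj10, Kcnk10, Scn11a and Cacnb2 were brightest in VZ-like cells and Cacna2d1 in glutamatergic-like cluster 5.

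Neuron-like cells had higher levels than VZ-like cells of most channel genes. Of 75 members with at least 30 summed values over the 2 classes, 42 were at least 2-fold higher in neuron-like cells, 6 were at least 2-fold lower and 27 lay between. Over the 14639 genes of the table that reached the same minimum, 17.3% were at least 2-fold higher and 24.7% at least 2-fold lower. The median log2 ratio was 1.18 over the members and -0.17 over all genes. Members counted here had to reach the minimum in the classes compared, so a gene present in neither class could not enter. The higher members came from 11 of the groups by role. They comprised 4 of 7 sodium pore genes, both tested sodium β genes, 5 of 8 calcium pore genes, all 3 α2δ genes, 3 of 4 calcium β genes, 4 of 6 tested γ genes, 3 of 4 Hcn genes and 18 of 39 tested potassium channel genes. Median gene length was 120 kb for the 42 higher members, 65.8 kb for the 27 between and 56.7 kb for the 6 lower, and the part of gene length in these ratios was not tested. Of the 46 members at least 2-fold apart here with a value in both classes, 41 stayed so under every alternative that gave a value. Kcnk3 had no ratio with separate values for classes and levels. Cacna2d1, Cacng4, Kcnip1, Kcnk2 and Scn1a, all near 2-fold, came inside 2-fold under at least 1.

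The promoters of 4 members are shown as sequence context: the 2 highest and the 2 lowest ratios among members with a value in both classes and a promoter in the RefSeq table. Kcnd3 (chromosome 3, 105452330 to 105674002, plus strand) and Cacna2d3 (chromosome 14, 28904943 to 29721864, minus strand) stood at the higher end. Kcnj10 (chromosome 1, 172341210 to 172374085, plus strand) and Kcnk5 (chromosome 14, 20140057 to 20181809, minus strand) stood at the lower end. Each sequence runs from 250 bases before to 50 after the RefSeq start in GRCm38.p6, 5′ to 3′ on the gene's strand, with CG dinucleotides in capitals.
Kcnd3, chr3:105451640-105451939: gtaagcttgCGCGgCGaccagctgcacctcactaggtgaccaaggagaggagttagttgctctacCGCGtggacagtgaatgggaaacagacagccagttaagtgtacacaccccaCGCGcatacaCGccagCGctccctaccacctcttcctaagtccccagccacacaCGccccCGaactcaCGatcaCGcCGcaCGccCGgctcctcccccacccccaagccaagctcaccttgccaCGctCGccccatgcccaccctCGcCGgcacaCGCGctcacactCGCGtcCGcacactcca
Cacna2d3, chr14:29721815-29722114: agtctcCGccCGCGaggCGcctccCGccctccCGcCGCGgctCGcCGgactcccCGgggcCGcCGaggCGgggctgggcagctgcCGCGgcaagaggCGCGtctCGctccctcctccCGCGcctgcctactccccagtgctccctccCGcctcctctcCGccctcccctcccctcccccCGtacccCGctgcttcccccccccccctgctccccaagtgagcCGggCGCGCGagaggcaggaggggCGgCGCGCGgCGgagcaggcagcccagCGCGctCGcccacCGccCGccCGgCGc
Kcnj10, chr1:172340960-172341259: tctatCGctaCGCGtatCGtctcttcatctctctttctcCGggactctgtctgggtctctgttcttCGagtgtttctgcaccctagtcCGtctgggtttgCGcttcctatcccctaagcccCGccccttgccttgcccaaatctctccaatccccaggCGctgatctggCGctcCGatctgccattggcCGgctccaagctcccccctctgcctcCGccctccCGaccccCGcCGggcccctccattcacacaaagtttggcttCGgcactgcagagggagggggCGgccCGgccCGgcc
Kcnk5, chr14:20181733-20182032: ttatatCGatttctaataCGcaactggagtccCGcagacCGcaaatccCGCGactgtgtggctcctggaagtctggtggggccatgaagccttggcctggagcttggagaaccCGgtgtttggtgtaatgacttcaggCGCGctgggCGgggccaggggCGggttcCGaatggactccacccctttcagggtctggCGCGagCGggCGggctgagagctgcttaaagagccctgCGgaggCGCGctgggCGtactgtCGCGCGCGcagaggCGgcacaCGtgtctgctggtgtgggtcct
These windows held 25 (Kcnd3), 41 (Cacna2d3), 21 (Kcnj10) and 26 (Kcnk5) CG dinucleotides, against a median of 7 over all 32851 promoters of the table (quartiles 3 and 20). All 4 windows thus lay above the upper quartile. Each of the 2 lowest ratios rests on 1 value in neuron-like cells, and 4 promoters picked by ratio say nothing of the other members. Only 69 of 97 members (71.1%) had a promoter in the table, so a check of promoter sequence over the members is void.

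**Figure D2:**
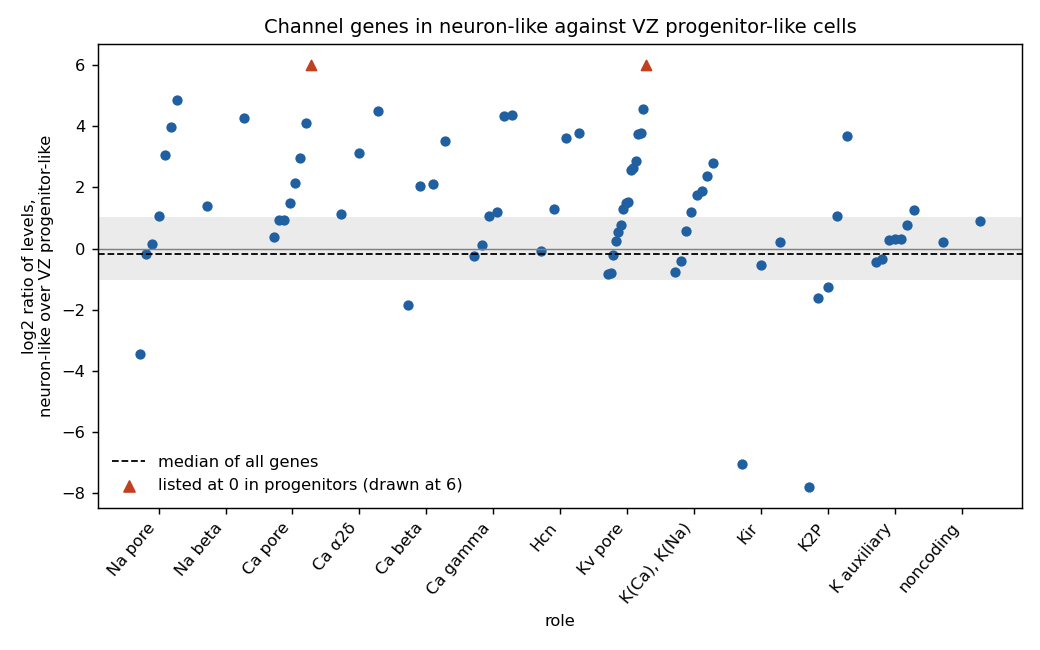
Log2 ratio of the level in neuron-like cells over that in VZ-like cells for 75 channel genes, grouped by role, each point a gene; the grey band marks less than 2-fold, the dashed line the median of all genes and triangles genes listed at 0 in VZ-like cells. The sodium, calcium pore, α2δ, γ and voltage-gated potassium pore groups each held a gene with a log2 ratio over 4, while Kcnk5 and Kcnj10 lay lowest.

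Among sodium channel pore genes, Scn3a, the main pore gene of the embryonic brain, had a value in most neuron-like cells and few VZ-like cells. Its level was 1.24 ± 1.23 in neuron-like and 0.0423 ± 0.186 in VZ-like cells (SD over cells), a log2 ratio of 4.87. It had a value in 69.0% of neuron-like cells (66.8% to 71.2%) and in 5.23% of VZ-like cells (4% to 6.71%). Intervals are exact binomial and cover the counting of cells only. Scn9a, known for its role in sensory neurons, was at 0.106 ± 0.367 in neuron-like and 0.00682 ± 0.0708 in VZ-like cells, a log2 ratio of 3.96. Scn2a, a pore of immature axons, was at 0.125 ± 0.346 in neuron-like and 0.0150 ± 0.107 in VZ-like cells (log2 3.06). Scn1a, the sodium channel on which mature interneurons rely, was only just past 2-fold at 0.0626 in neuron-like and 0.03 in VZ-like cells (log2 1.06). The sodium pore genes thus did not move as a group, and Scn8a, known from the axon initial segment of mature neurons, had levels of 0.176 in neuron-like and 0.159 in VZ-like cells, a log2 ratio of 0.15. Scn11a, known from sensory neurons, was lower at 0.00475 ± 0.0767 in neuron-like and 0.0512 ± 0.204 in VZ-like cells (log2 -3.43).

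Scn3a and Scn2a lie close together on chromosome 2, between 65457118 and 65767447, and Scn1a and Scn9a form another pair farther along, between 66270778 and 66634962. The log2 ratios were 4.87 and 3.06 within the first pair and 1.06 and 3.96 within the other. The sodium β subunits, which modify gating and adhesion, were higher as well. Scn3b was at 0.247 ± 0.502 in neuron-like and 0.0130 ± 0.104 in VZ-like cells (log2 4.25), and Scn2b had a log2 ratio of 1.41.

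Calcium channel pore genes differed by type. Cacna1b, the N-type pore of presynaptic terminals, was at 0.224 ± 0.442 in neuron-like and 0.0287 ± 0.144 in VZ-like cells, a log2 ratio of 2.97. Cacna1e, the R-type pore, had a log2 ratio of 4.11, and the L-type pores Cacna1d and Cacna1c had 2.15 and 1.48. Cacna1a, the P/Q-type pore, was present in both classes, in 31.2% of neuron-like cells (29.0% to 33.5%) and 29.5% of VZ-like cells (26.8% to 32.3%). Its log2 ratio was 0.37. The 3 T-type pores, which open near rest, also split. Cacna1h and Cacna1g had log2 ratios of 0.95 and 0.94, just inside 2-fold. Cacna1i was at 0.0152 in neuron-like cells and listed at 0 in VZ-like cells, where 0 of 1108 cells allows a share of cells with a value of up to 0.332%, which does not limit the share expressing the gene.

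The α2δ subunits, which carry calcium channels to the surface and to presynaptic sites, were all higher in neuron-like cells. Cacna2d3 was at 0.403 ± 0.871 in neuron-like and 0.0177 ± 0.114 in VZ-like cells (log2 4.51), and Cacna2d2 at 0.343 ± 0.763 in neuron-like and 0.0396 ± 0.172 in VZ-like cells (log2 3.12). Cacna2d1 was the exception in kind. Its log2 ratio of 1.14 came from 40 glutamatergic-like cells, 75% of which had a value (58.8% to 87.3%), whereas 2.44% of all neuron-like and 3.25% of VZ-like cells did. Without those cells the log2 ratio was -1.45, so Cacna2d1 was lower in the remaining neuron-like cells.

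Among the calcium β subunits, cytoplasmic partners of the pore, Cacnb4 was at 0.385 ± 0.607 in neuron-like and 0.0334 ± 0.163 in VZ-like cells (log2 3.53). Cacnb3 had a value in 75.6% of neuron-like and 31.6% of VZ-like cells, and its level was 1.37 ± 1.23 in neuron-like and 0.329 ± 0.572 in VZ-like cells (log2 2.06), and Cacnb1 had a log2 ratio of 2.10. Cacnb2 ran the other way, at 0.0252 ± 0.149 in neuron-like and 0.0894 ± 0.257 in VZ-like cells (log2 -1.83). The Cacng genes include the stargazin family, which chaperones AMPA receptors. Cacng2 (stargazin itself) and Cacng3 had log2 ratios of 4.35 and 4.36. Cacng4 was at 1.15 ± 1.22 in neuron-like and already at 0.549 ± 0.714 in VZ-like cells (log2 1.07). Cacng7 and Cacng5 lay within 2-fold at 0.11 and -0.25. The Hcn genes encode pacemaker channels that open on hyperpolarization. Hcn4 had a log2 ratio of 3.60, Hcn3 had 1.29, and Hcn2 was at 0.00902 in neuron-like and 0.00955 in VZ-like cells (log2 -0.08).

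Voltage-gated potassium pore genes were higher in neuron-like cells for 10 of 16 tested members and lower for none, and the other 11 of 27 were too rare to compare. Kcnd3, a subunit of A-type channels, was at 0.255 ± 0.513 in neuron-like and 0.0109 ± 0.0889 in VZ-like cells (log2 4.55). Its sister gene Kcnd2 lay within 2-fold over the whole class, at 0.103 in neuron-like and 0.0696 in VZ-like cells (log2 0.56). That pooled level joins unlike neurons. Kcnd2 was at 0.488 in LGE-like cluster 14, but at 0.0348 in cholinergic-like and 0.0290 in GABAergic-like cells, below the VZ-like level. Among the fast delayed rectifiers of the Kcnc family, which let neurons fire rapidly, Kcnc1 had a log2 ratio of 3.76, and Kcnc2 was at 0.0351 in neuron-like cells and listed at 0 in VZ-like cells. Kcnq3, a subunit of the M-current, which damps repetitive firing, was at 0.0626 in neuron-like and 0.109 in VZ-like cells (log2 -0.80). Members of the EAG family divided: Kcnh8 and Kcnh4 had log2 ratios of 2.63 and 2.56, while Kcnh2 and Kcnh7 had 0.77 and -0.84.

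The calcium-activated Kcnn1 (small conductance) was at 0.414 ± 0.644 in neuron-like and 0.0791 ± 0.258 in VZ-like cells (log2 2.39), and Kcnma1 (large conductance) had a log2 ratio of 2.80. Kcnn2 and Kcnn3, relatives of Kcnn1, had -0.41 and -0.77. Kcnmb4, an auxiliary subunit of the large conductance channel, had 1.18, and its antisense gene Kcnmb4os2 had 0.89. These opposite-strand genes overlap in exons. The sources used here do not say which strand was counted, so whether their reads were told apart could not be checked. The same holds for 34 members whose exons overlap an opposite-strand gene, of which 17 have an overlapping gene with a row of its own. Exons of 2 members overlap those of a gene on the same strand. Auxiliary subunits of voltage-gated potassium channels lay mostly within 2-fold. Of 7 tested, only Kcnip1 passed it (log2 1.25). Its level was 0.152 in LGE-like cluster 14 and 0.141 in glutamatergic-like cluster 5. Cholinergic-like and GABAergic-like cells stood at 0.0218 and 0.0203, close to the 0.0191 of VZ-like cells.

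The 6 members lower in neuron-like cells were 3 of 5 tested tandem-pore leak genes (Kcnk5, Kcnk1 and Kcnk10), 1 of 3 tested inward rectifier genes (Kcnj10), and Scn11a and Cacnb2. Leak and inward rectifier channels are known for setting the resting potential. Kcnk5 had a value in 13% of VZ-like cells (11.1% to 15.1%) and in 1 of 1721 neuron-like cells, 0.0581% (0.00147% to 0.323%). Kcnj10, the inward rectifier later known from astrocytes, had a value in 0.0581% of neuron-like and 7.49% of VZ-like cells (6.01% to 9.20%). A ratio for either gene would rest on 1 value. Its neighbour Kcnj9 on chromosome 1, which is read from the opposite strand, had levels of 0.0261 in neuron-like and 0.0225 in VZ-like cells (log2 0.21). Kcnk1 was at 0.0128 ± 0.104 in neuron-like and 0.0396 ± 0.176 in VZ-like cells (log2 -1.63). Kcnk10 had a value in 24.1% of neuron-like cells (22.1% to 26.2%) and 54.2% of VZ-like cells (51.3% to 57.2%). Its level was 0.269 ± 0.542 in neuron-like and 0.644 ± 0.752 in VZ-like cells (log2 -1.26). Other leak genes ran opposite, since Kcnk2 was at 0.404 ± 0.721 in neuron-like and 0.192 ± 0.435 in VZ-like cells (log2 1.08) and Kcnk3 had a log2 ratio of 3.69.

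The VZ-like clusters themselves were unequal for some of these genes. Scn11a was at 0.162 in cluster 4, led by Igfbp5 and Fzd7, against 0.0520 and 0.0363 in clusters 3 and 6. Kcnk5 was at 0.185 in cluster 4, 0.101 in cluster 3 and 0.0974 in cluster 6. Kcnj10 lay between 0.0509 and 0.0811 across the 3 clusters. Markers of other cell types were checked beside these differences. The mural list, with 2 of 6 markers measured, had a summed level of 0.0142 in neuron-like and 0.442 in VZ-like cells, and neither marker was at 0. The oligodendrocyte precursor list (4 of 5 measured) had 0.00285 in neuron-like and 0.266 in VZ-like cells, with 1 marker at 0 in neuron-like cells and none in VZ-like cells. The part of either in the members lower in neuron-like cells was not tested. The endothelial list (2 of 6 measured) had 0.0104 in neuron-like and 0.0109 in VZ-like cells. The red blood list (6 of 6) had 1.62 in neuron-like and 1.29 in VZ-like cells, a level of transcripts that neither class should make and so a gauge of free RNA.

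**Figure D3:**
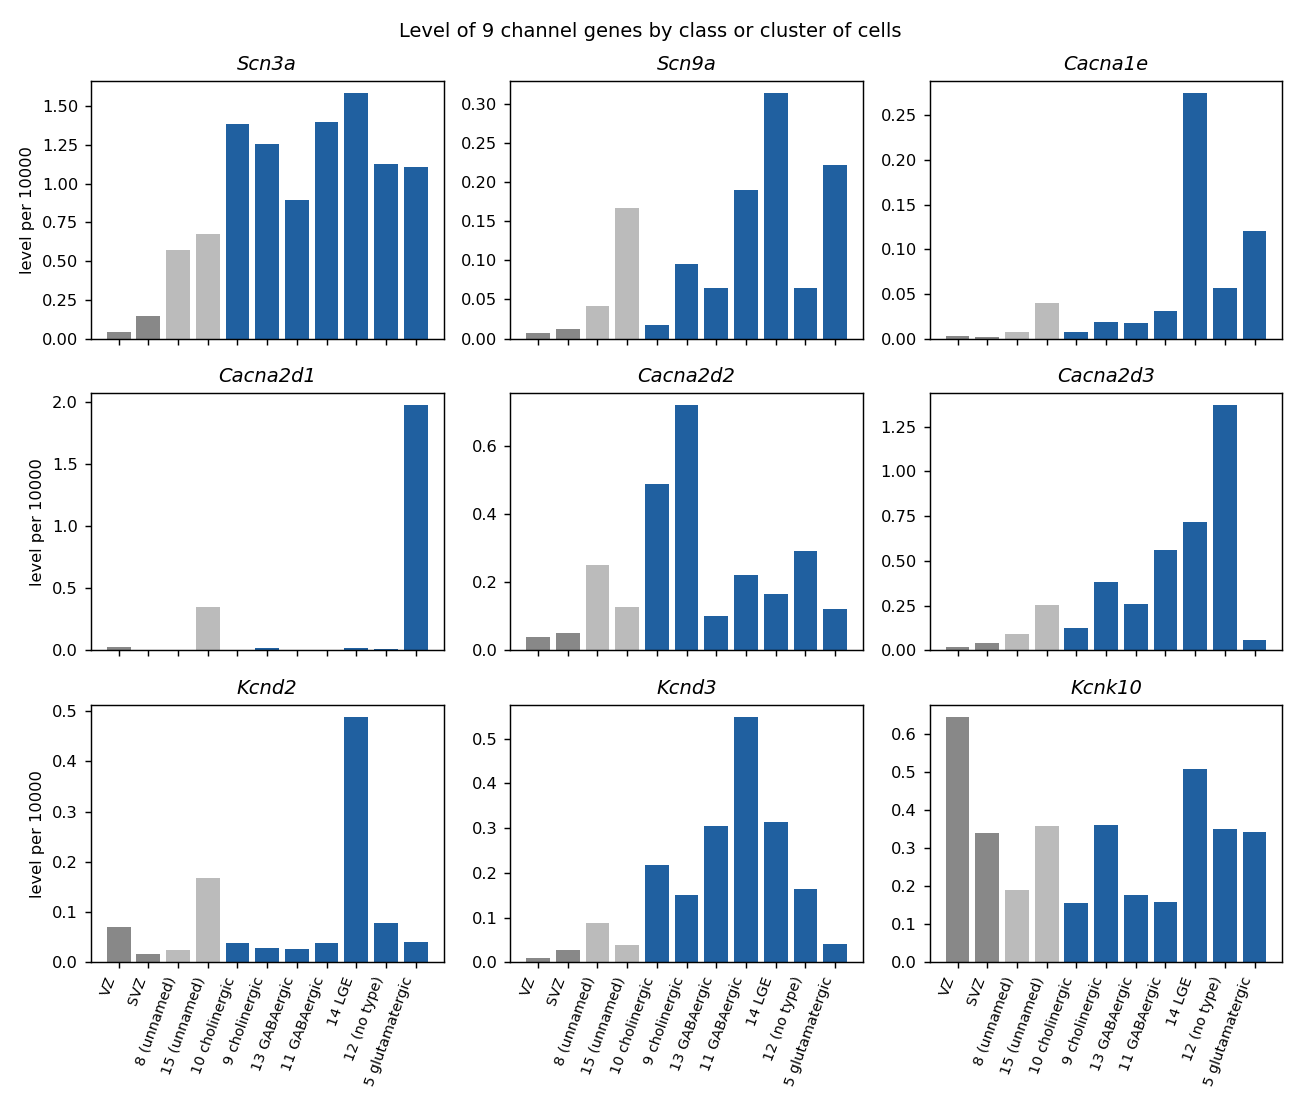
Level per 10000 summed values (bars) of 9 channel genes in the progenitor-like classes, the unnamed clusters and the neuron-like clusters, each panel on its own axis from 0. Scn3a was at 0.893 or above in every neuron-like cluster, while Cacna2d1 stood out in cluster 5 at 1.97 and Kcnd2 in LGE-like cluster 14 at 0.488.

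SVZ-like progenitors, which take their name from the zone between ventricular zone and mantle, differed from VZ-like cells in part of the set. Of 52 members tested, 8 were at least 2-fold higher and 10 at least 2-fold lower in SVZ-like cells, against 4.98% and 12.6% of 13435 genes. The median log2 ratio was 0.11 over the members and -0.17 over all genes. The 8 higher members were Scn3a (log2 1.78), Kcnh8 (1.77), Kcnn1 (1.61), Cacna1b (1.55), Kcnd3 (1.40), Scn3b (1.33), Cacng2 (1.25) and Cacna2d3 (1.14). The lower members included the leak genes Kcnk1 (-2.60) and Kcnk5 (-2.15) and the A-type gene Kcnd2 (-2.03), and Kcnj10 was at 0.0157 in SVZ-like and 0.0628 in VZ-like cells. Scn11a was listed at 0 in SVZ-like cells. Where cells were classed on one random part of the values and levels read from the other, the counts were 5 higher and 5 lower, and Cacna2d3, Cacnb2, Kcnip2, Kcnn2 and Scn3b came inside 2-fold.

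The levels of several members were set side by side over the classes and unnamed cluster 8, whose place among them was not determined. Scn3a was at 0.0423 in VZ-like, 0.145 in SVZ-like and 1.24 in neuron-like cells, and at 0.574 in cluster 8. Cacnb4 was at 0.0334 in VZ-like, 0.0653 in SVZ-like and 0.385 in neuron-like cells, and at 0.262 in cluster 8. Kcnn1 was at 0.0791 in VZ-like, 0.242 in SVZ-like and 0.414 in neuron-like cells. Its level of 0.534 in cluster 8 was close to the 0.522 of neuron-like cluster 13. Kcnq3 was at 0.109 in VZ-like, 0.217 in SVZ-like and 0.0626 in neuron-like cells, and at 0.120 in cluster 8, although neuron-like cluster 5 stood at 0.484. Kcnk10 was at 0.644 in VZ-like, 0.340 in SVZ-like and 0.269 in neuron-like cells, and at 0.191 in cluster 8.

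The number of channel genes with a value in a cell followed the same division. After thinning each cell to 10000 values, neuron-like cells held a median of 8 of the 93 coding members (quartiles 6 and 10), VZ-like cells 4 (2 and 5) and SVZ-like cells 4 (2 and 5). Cells of cluster 8 held a median of 5 and LGE-like cells the most among the named classes, 10 (8 and 13). GABAergic-like cluster 11 taken alone also had a median of 10 (8 and 11). Without thinning the medians were 9 in neuron-like, 5 in VZ-like and 4 in SVZ-like cells. Depth before the authors' correction is unknown, and its part in these numbers was not tested.

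**Figure D4:**
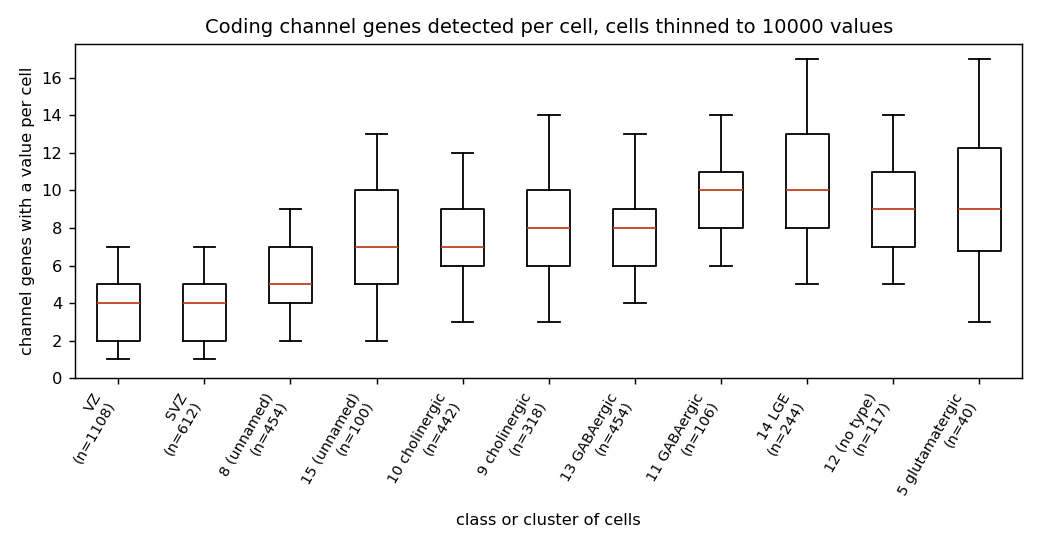
Number of the 93 coding channel genes with a value per cell after thinning to 10000 values, in the progenitor-like classes and in single clusters. Boxes span the quartiles with the median as a line, and whiskers run from the 5th to the 95th percentile of cells. VZ-like and SVZ-like cells had a median of 4 genes. Cholinergic-like clusters 10 and 9 had 7 and 8. GABAergic-like clusters 13 and 11 had 8 and 10, and LGE-like cluster 14 had 10.

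Cholinergic-like and GABAergic-like MGE neurons, the lineages named in the title of the series, differed in few channel genes. Of 55 members tested, 3 were at least 2-fold higher and 3 at least 2-fold lower in cholinergic-like cells, against 3.58% and 2.58% of 11898 genes. Each count is 5.45% of the members tested, near the share of all genes. The median log2 ratio was -0.00 over the members and -0.01 over all genes. Cacna2d2 had the largest ratio, at 0.587 ± 0.987 against 0.125 ± 0.364 in GABAergic-like cells (log2 2.23). It had a value in 37.6% of cholinergic-like (34.2% to 41.2%) and 12.1% of GABAergic-like cells (9.55% to 15.1%). By cluster, Cacna2d2 was at 0.720 (cluster 9) and 0.489 (cluster 10) against 0.221 (cluster 11) and 0.102 (cluster 13). Its ratio was taken over these same clusters, so their order adds no support.

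Kcnh2, the channel of the rapid cardiac repolarizing current, was at 0.183 ± 0.456 in cholinergic-like and 0.0769 ± 0.236 in GABAergic-like cells (log2 1.25). Cluster 9 carried most of that difference at 0.297, since cluster 10 stood at 0.0997, against 0.0685 in cluster 11 and 0.0789 in cluster 13. Cacna1d had a log2 ratio of 1.21, but its clusters overlapped, with 0.0568 in cluster 9 and 0.0226 in cluster 10 against 0.0457 in cluster 11 and 0.00897 in cluster 13. On the other side, Cacng3 was at 0.0718 ± 0.315 in cholinergic-like and 0.199 ± 0.474 in GABAergic-like cells and had a log2 ratio of -1.47, with 0.0129 in cluster 9 and 0.115 in cluster 10 against 0.251 in cluster 11 and 0.187 in cluster 13. Kcnn2 was at 0.0316 ± 0.154 in cholinergic-like and 0.0885 ± 0.282 in GABAergic-like cells (log2 -1.49). Of the 6 members, Cacna2d2 and Kcnn2 stayed at least 2-fold apart under every alternative that gave a value, and the other 4 came inside 2-fold under at least 1. Cluster 10 also held 7 GABAergic-type markers at raised level beside 6 cholinergic-type ones, and the part of mixed identity in these ratios was not tested.

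LGE-like neurons differed from MGE neuron-like cells in a larger part of the set. Of 62 members tested against all cholinergic-like and GABAergic-like MGE neurons, 14 were at least 2-fold higher and 8 at least 2-fold lower in LGE-like cells, against 6.13% and 5.73% of 12371 genes. The median log2 ratio was 0.35 over the members and 0.02 over all genes. Kcnd2 was at 0.488 ± 0.779 in LGE-like and 0.0323 ± 0.185 in MGE neuron-like cells (log2 3.92), with a value in 37.3% of LGE-like (31.2% to 43.7%) and 3.33% of MGE neuron-like cells (2.43% to 4.45%). Kcnip1, whose KChIP protein binds Kcnd channels, was also higher, at 0.152 ± 0.395 in LGE-like and 0.0211 ± 0.139 in MGE neuron-like cells (log2 2.85). Kcnd3, a relative of Kcnd2, and Kcnip2 and Kcnip3, relatives of Kcnip1, lay within 2-fold at 0.28, 0.21 and 0.03.

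Among calcium and sodium channel genes, Cacna1e was at 0.275 ± 0.525 in LGE-like and 0.0155 ± 0.113 in MGE neuron-like cells (log2 4.14), with a value in 25.4% of LGE-like and 1.82% of MGE neuron-like cells. Scn9a was at 0.314 ± 0.638 in LGE-like and 0.0665 ± 0.277 in MGE neuron-like cells (log2 2.24). Scn3b was at 0.488 ± 0.622 in LGE-like and 0.179 ± 0.433 in MGE neuron-like cells (log2 1.45). The remaining higher members were Cacna1i (2.96), Kcnma1 (2.23), Kcnj9 (1.84), Cacna1d (1.74), Cacnb2 (1.52), Cacna2d3 (1.41), Scn2a (1.32), Kcnk10 (1.25) and Kcnb2 (1.03). Lower members were led by Cacng3 and Kcnc2, each with a value in 0.410% of LGE-like cells (0.0104% to 2.26%), against 11.4% and 4.70% of MGE neuron-like cells. Other lower members were Cacna1g (-1.28), Cacna2d2 (-1.24), Kcnh7 (-1.22) and Kcnab3 (-1.17). Cacna2d2 turned to a log2 ratio of 0.40 against GABAergic-like cells alone, a comparison added after the data were seen. Of the 22 members, 16 stayed at least 2-fold apart under every alternative that gave a value. The other 6, among them Cacna1g, Cacna2d2, Cacna2d3, Kcnab3 and Kcnb2, came inside 2-fold under at least 1, with Cacna2d3 at a log2 ratio of 0.04 when cells that skip the value 1 were left out and Kcnab3 at -0.05 with separate values. Among the 16, Cacng3 had no ratio at resolution 2, with 4000 variable genes, with called doublets kept or without cells that skip the value 1. Kcnc2 had none at resolution 2, without those cells or with separate values. Neuronal structural genes moved beside the channels: Nefl (4.16), Nefm (3.16), Gap43 (2.23), Ina (1.36) and Rbfox3 (1.03) were higher in LGE-like cells, and none of the 14 postmitotic markers was 2-fold lower. Their part in the channel ratios was not tested.

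**Figure D5:**
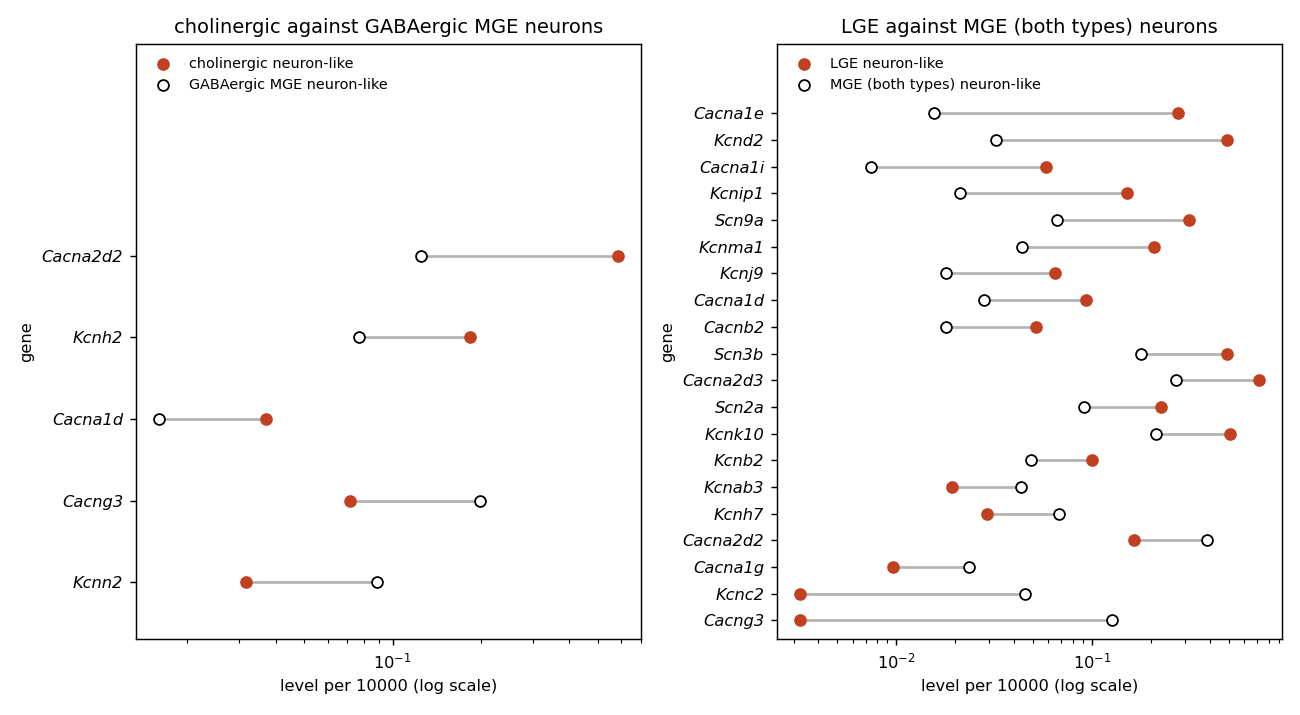
Level (log axis) of the members shown, all at least 2-fold apart, in LGE-like against MGE neuron-like cells and in cholinergic-like against GABAergic-like cells, each line joining the 2 levels of a gene. The widest gaps were those of Cacng3, Cacna1e, Kcnd2 and Kcnc2 in LGE-like cells.

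Across the 7 neuron-like clusters, 28 of 64 members (43.8%) had a highest cluster at least 2-fold above the median cluster, against 19.2% of 12648 genes. Those 28 members ran from 32 (Cacna1i) to 850 (Cacna2d3) summed values over the 7 clusters. The 2 shares were not matched for level, and the part of sparse values was not tested. Clusters 5 and 14 were the highest for 9 members each and cluster 11 for 6. Cluster 5 had 40 cells, and apart from Cacna2d1 (98 summed values) its highest levels rested on 3 (Kcnab2) to 24 (Kcnq3) summed values. Cluster 11, GABAergic-like and led by Cxcl14 and Unc5d, had among others the highest levels of Kcnd3 (0.548), Cacng3 (0.251), Scn1a (0.107) and Cacna1g (0.0914). Cluster 13, GABAergic-like and led by Sst, had lower levels of each, at 0.305, 0.187, 0.0592 and 0.0143 in the same order. Cluster 5 had Kcnq3 at 0.484 against 0.107 in the next cluster, Scn2a at 0.363 against 0.226 and Kcnb2 at 0.242 against 0.1. Cluster 12, which took no type, had the highest Cacna2d3 level at 1.37, and this gene was among the 10 leading genes of that cluster.

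The 3 α2δ genes therefore each had a different highest cluster. Cacna2d1 was highest in glutamatergic-like cluster 5, led by Otp (1.97), Cacna2d2 in cholinergic-like cluster 9 (0.720) and Cacna2d3 in cluster 12 (1.37). Cacna2d1 was also at 0.350 in unnamed cluster 15 and at most 0.0206 in any other neuron-like cluster. Other members were level across the 7 clusters. The highest cluster was 1.18 times the median for Cacnb3, 1.23 for Kcnmb4, 1.24 for Scn8a and 1.26 for Scn3a.

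Genes outside the rule that work with these channels were followed as 4 fixed lists in neuron-like against VZ-like cells. Of 18 tested channel partner and anchoring genes, 11 were at least 2-fold higher (61.1%) and 1 lower (5.56%), against 17.3% and 24.7% of all genes. Among the higher were Ank3 (log2 3.47), the ankyrin that anchors sodium channels at the axon initial segment, and Fgf14 (3.59), which binds sodium channels. Of 16 calcium-triggered release genes, 13 were higher (81.2%) and none lower, with Syt4 at 4.55 and Syt1 at 4.46. Of 16 pump and chloride transport genes, 6 were higher (37.5%) and 4 lower (25%), the lower share near that of all genes. The chloride exporter Slc12a5 had a log2 ratio of 2.07 and the chloride importer Slc12a2 had -1.48. Of the 8 genes of the REST repressor complex, Rest itself was lower, at 0.0940 in neuron-like and 0.694 in VZ-like cells (log2 -2.89), Kdm1a was higher (1.14) and 6 lay between. REST is known to bind a repressor element at many neuronal genes, sodium channel genes among them. The core of that element, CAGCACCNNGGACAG, was searched on both strands of the promoters shown above. None held it with up to 2 different letters, which 1.92% of all promoters in the table did. Of the 98 promoters of the 69 members in the table, 3 (3.06%) held it. Only 69 of 97 members had a promoter there, so this count says nothing of the members as a set, of other windows or of the factor.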

How the data were processed

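Per the labels, RNA and sample barcodes of 1 pool made the 2 samples, and the submitters' processing notes name bcl2fastq, Cell Ranger 3.0.2 and GRCm38. The deposited matrix was treated as a score: whole numbers made by the authors from UMI counts, with cell totals of 10475 to 14196 (median 12506) and 2471 to 5486 genes per cell. In 195 cells (4.87%) the value 1 was under 10% of values over 1514 genes of mean near 1, as rescaled and rounded counts give. Depth before that step is unknown, and a level near that of 1 value cannot show absence. No columns of other samples were present.

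Scrublet in scanpy 1.11.5 (expected rate 5%) called 6 of 4001 cells (0.150%), too few to show that doublets were rare. They were removed. Clustering used log values per 10000. The 2000 most variable genes without channel genes, 30 principal components, 15 neighbours and Leiden resolution 1 (igraph 0.11.9, seed 0) gave 15 clusters. They were named from 15 marker lists (106 of 132 markers with a row) by at least 3 markers at 1.5-fold and in 10% of cells, unless markers of other lists led the 10 leading genes. That naming rule was set after clusters had been seen. Any member could be named, with values mainly for those past 2-fold, and from the other lists at most 4 genes at each end. Some genes that enter the counts are not reported here.

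Cells of 1 library are not replicates, so no p-value or standard error was computed. A ratio is called at 2-fold with 30 summed values over both classes. Intervals are exact (Clopper-Pearson, 95%). All 97 members matched GENCODE M21 by ID and symbol, and levels of different genes were not compared, since 3′ tags depend on each gene. The members and lists were chosen with earlier results of these data known. Alternatives covered clustering, cells, scaling, minimum, fold and separate values for classes and levels, and 3 were added after the data were seen.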

Additional observations from a re-analysis of the deposited data

How the results depend on the processing

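Most values kept their direction and stayed within 1.5 times of the reported one. For neuron-like against VZ-like cells, the members lower numbered 3 with a minimum of 100 summed values. Cacna2d1 turned to -1.55 (log2) with 4000 variable genes and to -1.45 without glutamatergic-like cells. Added after the data were seen were that setting, unnamed clusters counted as neurons, and LGE-like against GABAergic-like cells only, where Cacna2d2 turned to 0.40 and the members lower numbered 5. For the counts below, minimum and fold settings change by construction how many genes qualify. For the other settings the cause was not tested. In SVZ-like against VZ-like cells, the members higher numbered 5 and lower 5 with classes and levels from separate values, 4 and 5 at a minimum of 100, and 19 and 25 at a minimum of 1. The members higher numbered 16 at 1.5-fold and 3 at 3-fold. In cholinergic-like against GABAergic-like cells, the members higher numbered 5 at resolution 0.5, 6 with 4000 variable genes, 19 at a minimum of 1, 5 at 1.5-fold and 1 at 3-fold. The members lower numbered 5 at resolution 0.5, 5 with channel genes in the clustering, 6 with separate values, 9 at a minimum of 1, 10 at 1.5-fold and 1 at 3-fold. In LGE-like against MGE neuron-like cells, the members higher numbered 9 at a minimum of 100, 33 at a minimum of 1 and 8 at 3-fold. The members lower numbered 3 with separate values, 5 at a minimum of 100, 13 at a minimum of 1 and 3 at 3-fold. Channel genes detected per cell and across clusters stayed within 1.5 times under each alternative run, and scaling was not tried for the first because it cannot change a number of genes. Ratios of genes with no value in a class, such as Cacna1i and Kcnc2 in VZ-like cells, could not be given. No paired analysis was possible because there was 1 library.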

Other observations

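The partner lists were also compared between neuronal lineages. In LGE-like against MGE neuron-like cells, 5 of 18 tested channel partner and anchoring genes were at least 2-fold higher (27.8%, against 6.13% of all genes), among them Fgf14 (log2 2.42) and the axonal adhesion genes Nfasc (2.29) and Cntnap2 (1.98). Lower by at least 2-fold were 3 genes (16.7%, against 5.73% of all genes), Fgf11 (-1.53), Lgi1 (-1.81) and Stac2 (-3.40). Slc12a5, the neuronal chloride exporter, was at 0.184 in LGE-like and 0.0697 in MGE neuron-like cells (log2 1.40). In cholinergic-like against GABAergic-like cells, 2 of 15 pump and chloride transport genes were at least 2-fold higher (13.3%, against 3.58% of all genes), and the sodium pump β gene Atp1b1 was at 0.852 in cholinergic-like and 0.261 in GABAergic-like cells (log2 1.71). Syt4 and Cplx2, which act in vesicle release, had log2 ratios of -1.84 and -1.14, and Lgi1 had -2.57.

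Kcnq1ot1, the noncoding member with the largest sum, was at 5.94 in SVZ-like cluster 7, 2.45 in SVZ-like cluster 1 and 2.74 in SVZ-like cluster 2. Its log2 ratio was 0.69 in SVZ-like against VZ-like cells and 0.21 in neuron-like against VZ-like cells.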
